A study of Mus musculus with 10 samples.

Results

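The high-affinity IgE receptor and the proteins that carry its first signal were followed through 10 genes in 10 RNA-seq libraries of mouse bone marrow cells. The genes were taken by symbol and are 10 of the 47311 genes in the gene-level tables. They are the receptor chains Fcer1a, Ms4a2 and Fcer1g, the kinases Lyn, Fyn, Syk and Btk, the membrane adaptors Lat and Lat2, and the phospholipase Plcg1. All 10 had enough counts in these libraries to enter the tests.

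The receptor sits on mast cells and basophils. Its alpha chain (Fcer1a) binds the Fc part of IgE outside the cell, its beta chain (Ms4a2) amplifies the signal, and its gamma chain (Fcer1g), a dimer shared with other Fc receptors, passes it inward. When antigen crosslinks bound IgE, the Src-family kinase Lyn phosphorylates tyrosines in the tails of the beta and gamma chains, in a motif called the ITAM, and Syk docks on the gamma chain motif. Syk then phosphorylates the adaptors LAT and LAT2. LAT gathers phospholipase C gamma 1 and its helpers, among them the Tec-family kinase BTK. The phospholipase releases the second messengers that raise calcium and start degranulation. Fyn, another Src-family kinase, opens a parallel branch through the adaptor GAB2 and phosphoinositide 3-kinase.

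Lineage-negative, Kit-positive bone marrow cells carried an empty vector, over-expressed wild-type (full-length) ASXL2, or over-expressed 1 of 3 mutant forms of ASXL2, a chromatin-associated scaffold protein. Each of the 5 groups had 2 libraries, and all cells were grown with IL3, IL6 and SCF, sorted for GFP, expanded and used for polyA RNA. The labels do not give the vector's promoter, the mutations or the age or strain of the mice, whether the libraries of a pair are separate cultures. The p-values below therefore cover the spread between libraries alone, which may be technical. The 3 mutant groups were pooled into 1 class of 6 libraries, because 4 mutant libraries were deposited under a name with another mutant number than their label.

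The deposited names also split the libraries into 5 of a first and 5 of a second batch, and 2 libraries are in another batch by name than by label. In what follows batches are taken from the names, and mutant and replicate numbers from the labels. The first batch then holds replicate 1 of the empty vector, of full-length ASXL2 and of mutant 2, and both replicates of mutant 1. The second batch holds the other 5. By the mutant numbers in the names, each batch instead holds mutants 1, 2 and 3. The batch of the names was a block in the fits below. Between 52422686 and 79320702 estimated counts were available per library. Asxl2 itself, the over-expressed gene, stood at 107 and 111 CPM (counts per library size, scaled by TMM) in the empty vector libraries and between 790.2 and 1892 CPM in the 8 others, so no library went against its label as to whether it carried a construct.

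The label names the cells by their surface phenotype at isolation, and their RNA was checked against lists of marker genes. Of 10 mast cell markers 9 averaged at least 10 TPM (a length-scaled share of transcripts), with Kit, the stem cell factor receptor, between 729 and 1050 TPM, Cpa3, a mast cell carboxypeptidase, between 19390 and 27100 TPM, and the summed list between 46500 and 58950 TPM. Of the 5 stem and progenitor markers, Ly6a averaged 1436 TPM and Cd34 254 TPM, and Flt3 lay at or below 0.0277 TPM in every library. Summed over their lists, B cell markers stayed at or below 3.47 TPM, T and NK cell markers at or below 1.16 TPM and neutrophil markers at or below 2.48 TPM. Of 7 basophil markers 3 averaged at least 10 TPM, Cd200r3 at 567 TPM, Il4 at 38.1 TPM and Mcpt8 at 11.2 TPM. The basophil list summed to between 571 and 694 TPM, most of it Cd200r3. The megakaryocyte and platelet list summed to between 935 and 1640 TPM, nearly all of it the integrin gene Itga2b. Erythroid markers summed to between 16.6 and 38.7 TPM, monocyte and macrophage markers to between 10.3 and 19.9 TPM and eosinophil markers to between 1.40 and 14.3 TPM. These are bulk libraries, in which fewer cells of a type and less RNA per cell cannot be told apart.

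The ITAMs mark where the signal enters the cell, and a search shows which annotated coding transcripts contain the motif. Whether each of these gives a working chain was not tested. The motif was searched in the coding transcripts of all 10 genes as a tyrosine, any pair of residues and a leucine or isoleucine, repeated after 6 to 8 residues, and among these genes it was found in Ms4a2 and Fcer1g only. The sequences below come from the mm10 genome along GENCODE M21 coding exons, 5′ to 3′ on the minus strand, and the tyrosine codons are in capitals. The Ms4a2 motif lies at chr19:11617512-11617553 and the Fcer1g motif at chr1:171229889-171230072, where it is split by an intron.
Ms4a2 ITAM: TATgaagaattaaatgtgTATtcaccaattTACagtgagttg
Fcer1g ITAM: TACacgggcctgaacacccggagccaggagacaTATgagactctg
The beta chain motif has 3 tyrosine codons and the gamma chain motif 2. It was present in 4 coding transcripts of Ms4a2, which made up 89.9% of the gene's TPM, and in the 1 Fcer1g transcript that made up 97.2%.

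Fyn exists in forms that differ by a coding exon, and the transcript values below turn on it. Fyn uses 1 of 2 alternative exons in the linker between its SH2 and kinase domains. The exon of the form named for T cells (FynT) lies at chr10:39529919-39530074 and that of the form named for brain (FynB) at chr10:39529437-39529601, both on the plus strand of mm10.
FynT exon: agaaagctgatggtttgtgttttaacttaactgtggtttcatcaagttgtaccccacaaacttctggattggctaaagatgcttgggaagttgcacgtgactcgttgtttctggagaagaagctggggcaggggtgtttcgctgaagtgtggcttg
FynB exon: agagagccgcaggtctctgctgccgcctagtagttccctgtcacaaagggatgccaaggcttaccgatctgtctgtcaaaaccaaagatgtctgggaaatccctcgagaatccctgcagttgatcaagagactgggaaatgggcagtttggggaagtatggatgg
The FynT exon is 156 bases long and the FynB exon 165, and over 171 aligned columns 55.6% of positions were identical.

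By TPM summed over all transcripts of a gene, the receptor chains and the adaptor Lat2 were the most abundant of the 10 genes. The kinases that act first were the least abundant. Fcer1a averaged 7208 ± 686 TPM (SD, n = 10) and ranked 14th of 47233 gene symbols by mean TPM. Ms4a2 averaged 1654 ± 296 TPM, Lat2 1343 ± 258 TPM and Fcer1g 1320 ± 94.9 TPM. Ms4a2 lay above Lat2 in 10 of 10 libraries although their ranges overlapped. Lat2 lay above Fcer1g in 5 of 10, so these last 2 could not be ordered by this sum. The sum for Lat2 is largely not coding: 53.5 to 65.9% of it lay in transcripts not annotated as protein coding, against 0.480 to 1.84% for Fcer1g. Next came Lat at 380 ± 28.5 TPM, Btk at 240.1 ± 24.0 TPM and Plcg1 at 194 ± 28.2 TPM. Lyn followed at 65.6 ± 5.89 TPM, and Syk at 40.6 ± 4.10 TPM lay above Fyn at 34.4 ± 5.71 TPM in 7 of 10 libraries. Btk exceeded Plcg1 in 10 of 10 libraries with overlapping ranges, and no other neighbours in this order overlapped.

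**Figure D1:**
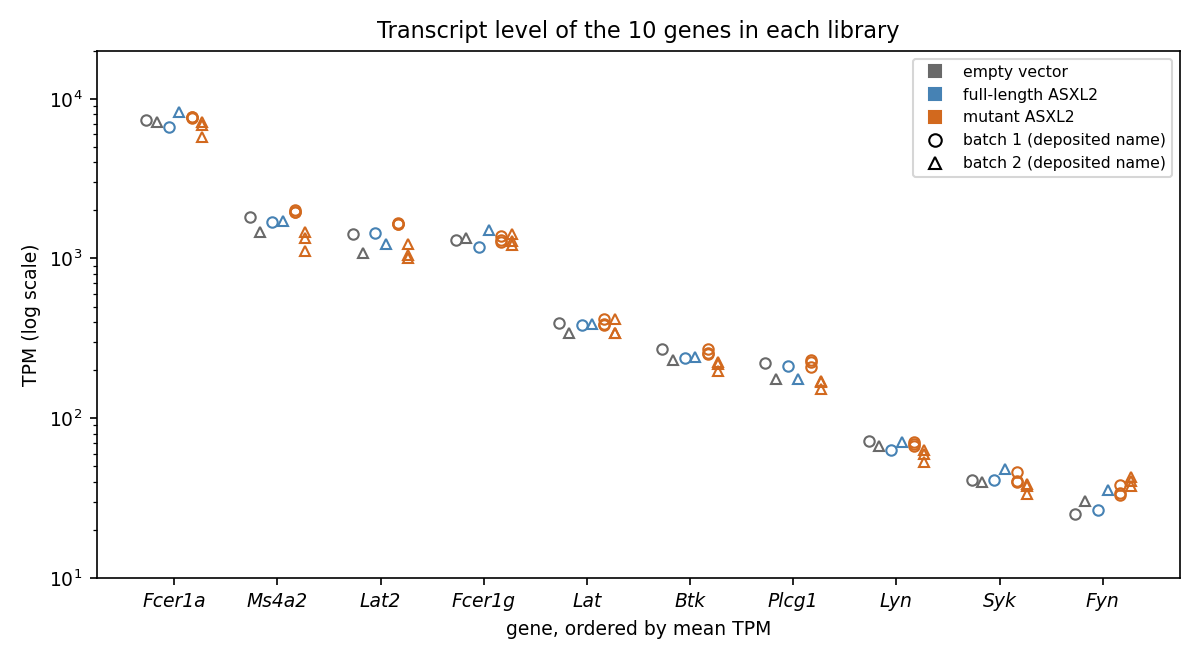
TPM of each of the 10 genes (log axis) in each of the 10 libraries, ordered by mean. Colour gives the construct and the symbol gives the batch by deposited name. Fcer1a lies highest at 5760 to 8224 TPM and Syk and Fyn lowest, and the spread within a gene is small beside the distance from Fcer1a to the kinases.

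The alpha chain gene Fcer1a (chr1:173221284-173227214, minus strand, mm10) stood at 4369 and 4846 CPM in the empty vector libraries of the first and second batch, and at 4423 and 5213 CPM with full-length ASXL2. The 6 mutant libraries ran from 4357 to 4996 CPM with a median of 4737 CPM. All 3 classes overlapped, and the log2 fold change of the mutants against the empty vector was 0.04 (95% interval -0.11 to 0.19). The sign of the difference between mutants and full-length ASXL2 differed between batches, at 0.08 in the first and -0.14 in the second on the log2 scale.

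The beta chain gene Ms4a2 (chr19:11615523-11623719, minus strand) stood at 1694 and 1631 CPM with the empty vector and at 1776 and 1845 CPM with full-length ASXL2. The mutant libraries ran from 1411 to 1969 CPM with a median of 1777 CPM, the widest relative spread of the receptor chains. In the first batch the 3 mutant libraries (1889, 1896 and 1969 CPM) lay above the full-length library, and in the second batch the 3 (1411, 1641 and 1664 CPM) lay below it. On the log2 scale the difference between mutants and full-length ASXL2 was 0.11 in the first batch and -0.24 in the second. This difference between batches had an unadjusted p of 0.0303 and an adjusted p of 0.770 in edgeR's quasi-likelihood test, so it did not pass.

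The gamma chain gene Fcer1g (chr1:171229572-171234365, minus strand) stood at 466 and 549 CPM with the empty vector, 476 and 576 CPM with full-length ASXL2, and 479 to 595 CPM in the mutants. Every construct library lay above the empty vector library of its own batch, a pattern that 13.1% of all genes tested also showed. The size was small, with a log2 fold change of 0.06 for the mutants against the empty vector (95% interval -0.04 to 0.16). None of the receptor chains passed the threshold in any comparison of constructs, with edgeR adjusted p-values of at least 0.464.

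The kinase that starts the cascade, Lyn (chr4:3678115-3813122, plus strand), passed in no comparison. It stood at 161 and 174 CPM with the empty vector, 159 and 171 CPM with full-length ASXL2 and 156 to 166 CPM in the mutants. The log2 fold change of the mutants against the empty vector was -0.06 (95% interval -0.16 to 0.04).

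Fyn (chr10:39368855-39565381, plus strand), which opens the parallel branch, rose in the mutants. It stood at 42.9 CPM in the empty vector library of the first batch, 50.5 CPM in the full-length library and 57.3, 59.6 and 63.2 CPM in the 3 mutant libraries. In the second batch the same order was seen at a higher level, with 60.7 CPM for the empty vector, 70.0 CPM for full-length ASXL2 and 83.4, 87.1 and 89.1 CPM for the mutants. Within each batch the classes did not overlap, but across batches they did, since the first-batch mutants lie at the level of the second-batch empty vector. Fyn was the only one of the 10 genes with the order empty vector, full-length, every mutant in both batches, which 2.06% of all genes showed in the rising direction.

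Against the empty vector, Fyn in the mutants had a log2 fold change of 0.50 (SE 0.05, 95% interval 0.39 to 0.61, edgeR adjusted p = 0.0002259), the 59th smallest p of 17810 genes. The size was 0.48 within the first batch and 0.51 within the second, and the call held without each library in turn (0.48 to 0.51). Without the batch block the fold change was again 0.50 but the edgeR adjusted p was 0.446, and with the batch of the labels as block it was 0.317. The call thus rests on the batch of the deposited names being a term of the fit.

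Markers of cell types moved in the same comparison, in which 6.82% of all genes tested rose and 3.99% fell. The stem and progenitor genes Cd34 (log2 fold change -0.39, edgeR adjusted p = 0.0339) and Hlf (-1.05, adjusted p = 0.0180, averaging 1.01 TPM) fell, 2 of 4 tested on that list. The sum of the list was 1743 to 2023 TPM with the empty vector and 1634 to 1955 TPM in the mutants. Of 9 mast cell markers 1 rose, the histidine decarboxylase gene Hdc (1.14, adjusted p = 0.0425), with sums of 51610 to 55050 TPM and 46500 to 51870 TPM. The erythroid genes Klf1 (0.84, adjusted p = 0.0236, averaging 0.967 TPM) and Epor (0.89, adjusted p = 0.00525, averaging 4.42 TPM) rose, 2 of 3 tested, with sums of 22.6 to 24.7 TPM and 16.8 to 38.7 TPM. Cebpa (1 of 7 on the basophil list, averaging 0.424 TPM) and Cd79b (1 of 3 on the B cell list, averaging 1.66 TPM) rose as well, and 0 passed of the 16 tested on the T and NK cell, monocyte and macrophage, neutrophil, eosinophil, and megakaryocyte and platelet lists. Markers also rose with full-length ASXL2 against the empty vector, where 3.85% of all genes tested rose. These were Epor (log2 fold change 1.45), Klf1 (0.98), Cebpa (2.08), Cd79b (1.86), Cd14 (2.08) and Gp9 (1.54), at edgeR adjusted p-values from 0.00145 to 0.0365. Cd14 averaged 0.506 TPM and Gp9 2.85 TPM. There 0 of 4 stem and progenitor markers and 0 of 9 mast cell markers passed. The part of the markers in the results for Fyn, for Lat2 and for the wider pathway below was not tested.

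Against full-length ASXL2, Fyn in the mutants had a log2 fold change of 0.28 (SE 0.05, 95% interval 0.17 to 0.39, edgeR adjusted p = 0.0430). This call was lost, at a like fold change of 0.25 to 0.30, without any one of replicate 1 of mutant 1, both replicates of mutants 2 and 3, or either full-length replicate, with edgeR adjusted p-values from 0.0507 to 0.799. It was also lost without the block (adjusted p of 1). Between full-length ASXL2 and the empty vector, 0.22 on the log2 scale (95% interval 0.09 to 0.35) missed the threshold with an edgeR adjusted p of 0.0600. DESeq2 called it, with an adjusted p of 0.0252.

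**Figure D2:**
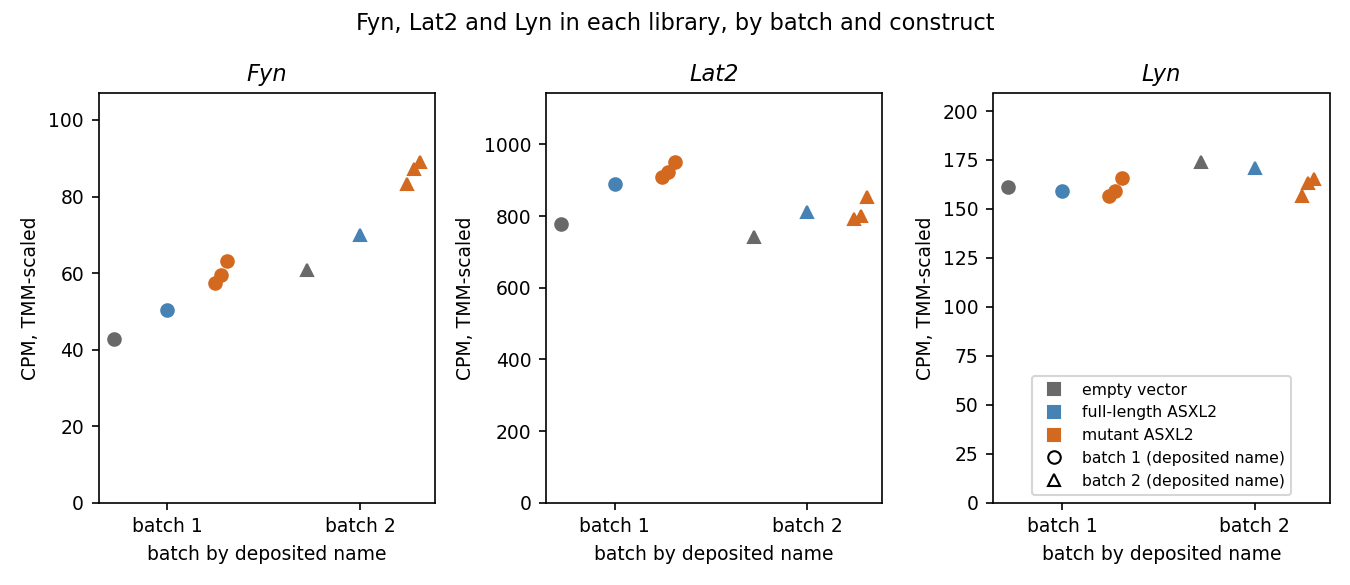
TMM-scaled CPM of Fyn, Lat2 and Lyn in each library (linear axes from 0), by batch of the deposited name and construct. For Fyn the empty vector, full-length and mutant libraries follow each other upward in both batches, Lat2 lies lowest in the empty vector of each batch, and Lyn shows no such order. Of all genes tested, 2.06% showed the order of Fyn and 13.1% that of Lat2.

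Syk (chr13:52583173-52648792, plus strand), the kinase that docks on the gamma chain, was highest with full-length ASXL2 in the second batch. It stood at 143 and 161 CPM with the empty vector, 156 and 182 CPM with full-length ASXL2, and 141 to 163 CPM in the mutants. Full-length ASXL2 differed from the empty vector by 0.16 on the log2 scale (95% interval 0.01 to 0.31, edgeR adjusted p = 0.240). Mutants differed from full-length by -0.15 (95% interval -0.27 to -0.03, edgeR adjusted p = 0.331), and neither difference passed. Btk (chrX:134542336-134583570, minus strand), which helps activate the phospholipase, kept to a narrow range, from 365 to 404 CPM over all 10 libraries, and its largest log2 fold change between classes was -0.03.

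The adaptor Lat2 (chr5:134600022-134615025, minus strand), also called NTAL, rose in the mutants by a small amount. It stood at 779 CPM in the empty vector library of the first batch, 889 CPM in the full-length library and 910, 923 and 952 CPM in the mutants. In the second batch the values were 741 CPM for the empty vector, 813 CPM for full-length ASXL2 and 792, 801 and 854 CPM for the mutants. In each batch the empty vector was lowest, a pattern that 13.1% of all genes tested also showed. Full-length and mutant libraries overlapped in the second batch.

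For the mutants against the empty vector Lat2 had a log2 fold change of 0.20 (SE 0.05, 95% interval 0.09 to 0.31, edgeR adjusted p = 0.0304), with 0.25 in the first batch and 0.14 in the second. Full-length ASXL2 against the empty vector gave 0.16 (edgeR adjusted p = 0.169). The mutant call was lost without replicate 1 of the empty vector (log2 fold change 0.14, edgeR adjusted p = 0.369), and, with adjusted p-values from 0.0526 to 0.0779, without replicate 1 of mutant 1, replicate 1 of mutant 2, replicate 2 of mutant 3 or either full-length library. It was lost as well without the block (adjusted p of 0.450), with the labelled batch as block (0.396) and in limma on log2(TPM + 1) (log2 difference 0.12, adjusted p of 0.544).

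Lat (chr7:126363824-126369570, minus strand), the adaptor on which the calcium signal is assembled, stood at 285 and 279 CPM with the empty vector, 311 and 299 CPM with full-length ASXL2 and 284 to 345 CPM in the mutants. Against the empty vector, Lat differed by 0.11 on the log2 scale with full-length ASXL2 (95% interval -0.05 to 0.28) and by 0.12 in the mutants (-0.01 to 0.26), and neither passed. Plcg1 (chr2:160731300-160775760, plus strand), the enzyme at the end of this segment, ran from 504 to 591 CPM with log2 fold changes of 0.01 to 0.02 in the 3 comparisons.

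Counted over the 10 genes, the mutants against the empty vector had 2 genes past the threshold, Fyn and Lat2, both higher, where 10.8% of all 17810 genes tested were called and 6.82% were called higher. The mutants against full-length ASXL2 had 1, Fyn, beside 0.399% of all genes. Full-length ASXL2 against the empty vector had 0, beside 5.07% of all genes. There 3 of the 10 (Fyn, Lat2 and Syk) had an unadjusted edgeR p under 0.05, as did 19% of all genes. DESeq2, which called more of all genes than edgeR in that comparison, called 1 of the 10. Without the block edgeR called 0 of the 10 in each comparison, with 0 at an unadjusted p under 0.05, and 0.752% of all genes were called for full-length ASXL2 and 1.75% for the mutants against the empty vector, and 0 genes for the mutants against full-length (720 at an unadjusted p under 0.05, and 491 called by DESeq2 with the block). Median log2 fold changes against the empty vector were 0.09 for full-length ASXL2 and 0.05 for the mutants over the 10 genes, and -0.02 and -0.01 over all genes tested. The 2 comparisons share the empty vector libraries. The sizes of the uncalled changes were small, since 95% intervals for the 8 genes other than Fyn and Lat2 lay within -0.27 and 0.35 in all 3 comparisons.

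**Figure D3:**
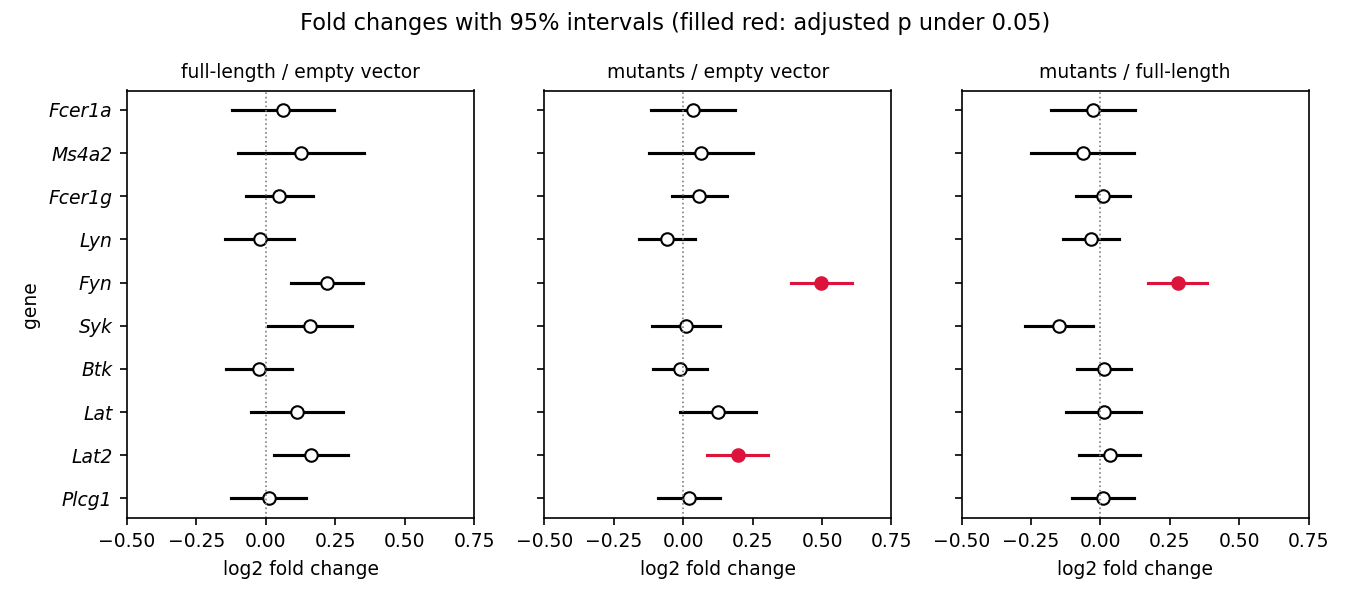
Log2 fold changes of the 10 genes in the 3 comparisons of constructs from 1 edgeR fit blocked on the batch in the deposited names. Points are estimates, lines 95% intervals, and filled red points have an adjusted p under 0.05. Fyn in the mutants is set apart, at 0.50 against the empty vector and 0.28 against full-length ASXL2, and most other intervals include 0.

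The construct effects were also compared between the batches by an interaction term. Of the 10 genes 0 passed, with edgeR adjusted p-values of at least 0.638 and 1, Ms4a2 between mutants and full-length, at an unadjusted p under 0.05. That test called few genes at all, 3 of 17810 (0.0168%) for full-length ASXL2, 0 (0.0%, with 1761 at an unadjusted p under 0.05) for the mutants, both against empty vector, and 6 (0.0337%) for the mutants against full-length, so the 0 of 10 does not show that the effects were alike in both batches. For Fyn the effect in the mutants differed between batches by 0.03 on the log2 scale (edgeR adjusted p = 0.965).

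Between the batches of the deposited names 6 of the 10 genes differed. Fcer1g (0.25, edgeR adjusted p = 0.0001713), Fyn (0.51, adjusted p = 6.485e-06) and Syk (0.13, adjusted p = 0.0308) were higher in the second batch on the log2 scale of the count fit. Ms4a2 (-0.17, edgeR adjusted p = 0.0459), Lat2 (-0.15, adjusted p = 0.00659) and Plcg1 (-0.12, adjusted p = 0.0256) were lower. Over all genes 52.4% were called for the batch, 26.6% higher and 25.9% lower. Fcer1g separated the batches without overlap, at 466 to 494 CPM in the first and 549 to 595 CPM in the second. In limma on log2(TPM + 1) the direction for Syk turned to -0.08 and Fcer1g at 0.07 did not pass. The Ms4a2 call was lost without any one library other than the full-length ones (edgeR adjusted p of 0.0691 to 0.150). The Syk call was lost without replicate 2 of mutant 1, replicate 2 of mutant 2 or either full-length library (0.0555 to 0.0747), and the Plcg1 call without either library of the empty vector, full-length ASXL2 or mutant 2, or replicate 1 of mutant 1 (0.0634 to 0.224). With replicate 2 of mutant 2 left out, 3 of the 10 genes remained past the threshold.

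Ratios between partners were compared within libraries, on TPM. The libraries held 0.228 ± 0.0279 Ms4a2 transcripts per Fcer1a transcript (SD, n = 10) and 0.184 ± 0.0135 Fcer1g transcripts per Fcer1a transcript. The beta to alpha ratio followed the batch, at 0.246 to 0.261 in the 5 libraries of the first and 0.194 to 0.210 in the 5 of the second. Fyn per Lyn had a geometric mean of 0.554 in the construct libraries against 0.399 with the empty vector, a log2 difference of 0.47, at 0.46 within the first batch and 0.49 within the second. In each batch the empty vector library had the lowest Fyn per Lyn (0.352 and 0.452) and the full-length library the next (0.421 and 0.498), below the mutants at 0.480 to 0.541 in the first and 0.682 to 0.700 in the second. With labels permuted over all libraries regardless of batch, the difference between constructs and empty vector had an exact two-sided permutation p of 0.0889 where the smallest possible is 0.0444, and an adjusted p of 0.857 over 12 such tests. With labels permuted within batches, a test added after seeing the data, the exact two-sided p was 0.08, the smallest that test can give (adjusted p = 0.48), so it could not pass 0.05. Mutants against full-length ASXL2 gave a log2 difference of 0.37 in Fyn per Lyn (exact two-sided permutation p = 0.143, smallest possible 0.0714, and 0.125 within batches, the smallest possible there), with 0.27 and 0.47 in the 2 batches. The other ratios, Lat2 per Lat at 3.52 (range 2.95 to 4.29), Plcg2 per Plcg1 at 0.174 ± 0.0229 and Tec per Btk at 0.0801 ± 0.0200, did not pass either, and their log2 differences between groups ranged from -0.22 to 0.23. With smallest possible p-values of 0.0444 and 0.0714 over 12 tests, no ratio could reach an adjusted p under 0.05. That none passed therefore says nothing about the ratios. Lat2 per Lat counts all transcripts, of which 53.5 to 65.9% for Lat2 and 4.26 to 12.1% for Lat were not annotated as protein coding.

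The deposited tables are per transcript, so the form of each gene could be read. For Lyn, the longer coding form (LynA, 512 codons) made up 66.1 ± 1.53% of the gene's TPM (SD, n = 10) and the shorter form (LynB, 491 codons) 29.1 ± 1.62%. The longer form lay between 64.3 and 68.5% in every library, and neither class nor batch separated its share. For Fyn, transcripts with the FynT exon made up 78.3 ± 3.95%, the transcript with the FynB exon 8.92 ± 2.05% and a transcript with neither exon 11.8 ± 2.05%. The FynT share followed the batch, with a mean of 74.8 ± 1.52% in the first and 81.8 ± 1.51% in the second and no overlap, and not the construct, at 77.6 ± 3.54% for the empty vector, 79.5 ± 3.48% for full-length ASXL2 and 78.1 ± 4.72% for the mutants.

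In level, FynT transcripts stood at 19.0 and 24.4 TPM with the empty vector, 20.5 and 29.1 TPM with full-length ASXL2, 24.2 to 28.7 TPM in the first-batch mutants and 31.1 to 34.4 TPM in the second-batch mutants. Within each batch they thus follow the order of the gene as a whole. FynB transcripts stood at 2.73 and 1.78 TPM with the empty vector and at 2.83 to 3.82 TPM in the mutants. Most of the sequence of these transcripts is shared, and kallisto divides reads among transcripts by estimate, so the split is less certain than the gene's total.

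**Figure D4:**
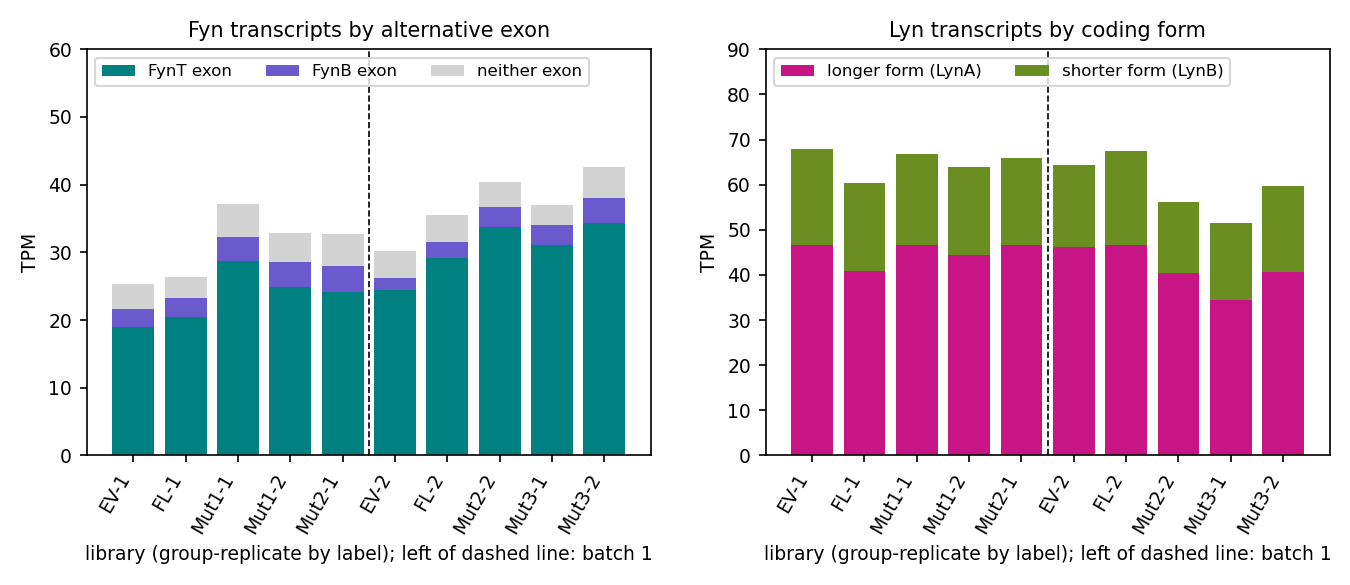
TPM of Fyn transcripts by alternative exon (left) and of Lyn transcripts by coding form (right), stacked for each library, with first-batch libraries left of the dashed line. FynT transcripts make up 73.2 to 83.4% of Fyn in every library and LynA exceeds LynB in every library.

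Among the receptor chains, Fcer1a came nearly whole (99.2%) from 1 transcript of 250 codons and Fcer1g (97.2%) from 1 of 86 codons. Ms4a2 was divided between a transcript with an annotated coding region of 125 codons (42.2 ± 1.28%) and the full form of 235 codons (36.3 ± 2.79%), and the ITAM printed above lies at codons 100 to 113 of the first and 210 to 223 of the second. Another 10% (SD 2.11) came from a transcript with no coding region. For Syk the 2 leading transcripts, at 64.1 and 29.3%, both have 629 codons, and for Btk, Lat and Plcg1 1 coding transcript gave 79.1, 82.7 and 61.0%. Lat2 differed from the other 9 genes in that its leading transcripts, at 25.1 and 18.2%, are annotated without a coding region, and its coding ones followed at 16.4% (191 codons) and 12.6% (203 codons).

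The share of TPM in transcripts not annotated as protein coding followed the batch in most of these genes. It was 63.3 to 65.9% for Lat2 in the first batch and 53.5 to 56.3% in the second, and 30.6 to 32.8% against 23.2 to 27.5% for Plcg1. Ms4a2 (11.4 to 12.8% against 6.86 to 8.95%), Lat (9.72 to 12.1% against 4.26 to 7.24%), Syk (5.62 to 7.80% against 2.41 to 4.14%) and Fcer1g (1.34 to 1.84% against 0.480 to 0.825%) also separated, and Lyn and Btk overlapped. These are 6 of the 8 members that averaged at least 10 TPM and had such a share averaging at least 1%, beside 36.7% of the 4822 genes that met the same rule, and 1.51% separated in the other direction. Fyn, with a share above 0 in 2 libraries only (0.906% and 1.04%), and Fcer1a, with none, did not meet it. Over those genes the median share was 18.6% in the first and 14.1% in the second batch. With coding transcripts alone, an alternative chosen after seeing the data, Lat2 no longer passed for the batch (-0.07, edgeR adjusted p = 0.114). Fyn and Lat2 in the mutants against the empty vector kept their calls there.

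**Figure D5:**
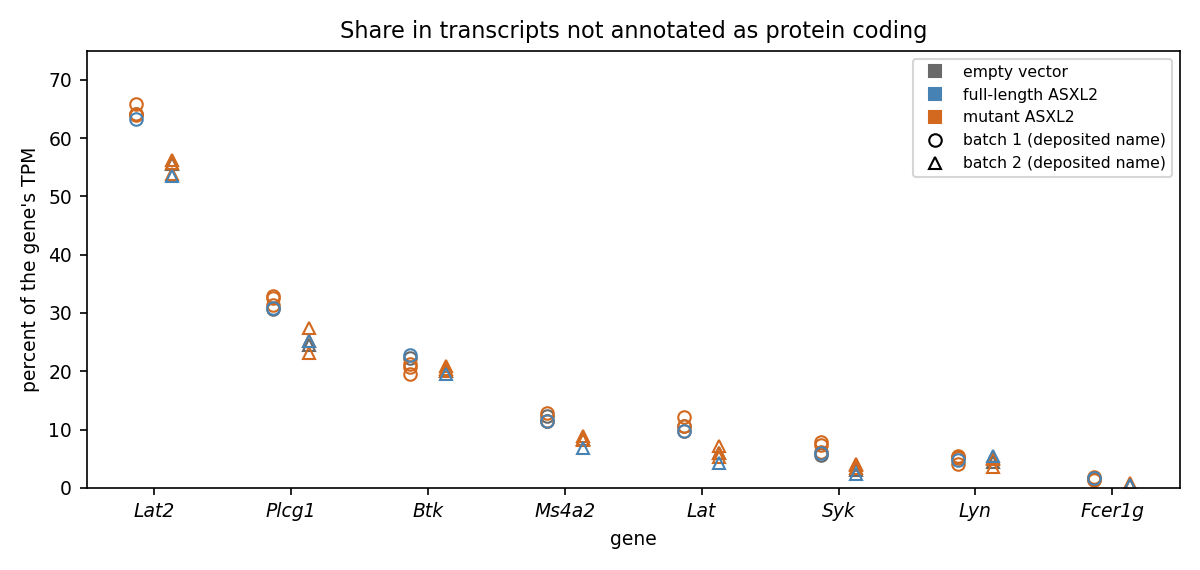
Percent of each gene's TPM in transcripts not annotated as protein coding, in each library, for the 8 genes with such a share (linear axis from 0). Circles (first batch) lie above triangles (second batch) without overlap in 6 of the 8, most visibly in Lat2 at 63.3 to 65.9% against 53.5 to 56.3%.

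Close relatives of the 10 genes were mostly low. Among Src-family kinases, Src averaged 10.8 TPM beside 65.6 TPM for Lyn and 34.4 TPM for Fyn, Lck averaged 0.372 TPM and Yes1 0.158 TPM, and Blk was listed at 0 in all libraries. Zap70, the T cell counterpart of Syk, averaged 0.0564 TPM. Of the Tec kinases Txk averaged 42.0 TPM and Tec 19.0 TPM against 240.1 TPM for Btk, and Bmx was listed at 0. Plcg2 averaged 33.2 TPM against 194 TPM for Plcg1.

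The ITAM adaptor Tyrobp averaged 842 TPM, below Fcer1g, while Cd247, the T cell receptor zeta chain, averaged 0.343 TPM. Of the adaptors related to LAT, Pag1 averaged 10.2 TPM and Lax1, Sit1 and Trat1 no more than 0.0125 TPM. Of the other Ms4a genes looked up, which were not the whole family, Ms4a3 averaged 5.47 TPM. Ms4a1, Ms4a4b, Ms4a4c, Ms4a6b, Ms4a6c and Ms4a7 averaged under 1 TPM. Fcer2a, the low-affinity IgE receptor of B cells, averaged 0.170 TPM. Fcgr3, the IgG receptor that pairs with the same gamma chain, averaged 169 TPM with the empty vector, 111 TPM with full-length ASXL2 and 119 TPM in the mutants. The fall passed in the mutants (log2 fold change -0.44, edgeR adjusted p = 0.0376) and not with full-length ASXL2 (-0.57, adjusted p = 0.0553). Its mean was 144.7 TPM in the first batch and 109.8 TPM in the second.

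The wider pathway was read from a list of 58 further genes (13 adaptors, 16 kinases and phosphatases, 19 effectors and 10 genes that restrain the signal), of which 56 passed the filter on low counts. With full-length ASXL2 4 rose and 2 fell against the empty vector, where 3.85% of all genes rose and 1.22% fell. In the mutants 6 rose and 5 fell, where 6.82% of all genes rose and 3.99% fell. Between mutants and full-length 0 passed in edgeR, beside 0.399% of all genes. Of the list 15 had an unadjusted edgeR p under 0.05 there, as did 11.2% of all genes. DESeq2 called 2 of the list. The list's median log2 fold change was 0.04 and 0.02 against the empty vector, beside -0.02 and -0.01 over all genes. With no block the counts were 3 for full-length ASXL2 and 1 for the mutants, where 0.752% and 1.75% of all genes were called. DESeq2 called 10 of the list for full-length ASXL2. It also called more of all genes than edgeR here and between mutants and full-length, as the counts in the closing section show. Without replicate 1 of the empty vector 3 genes were called in the mutants.

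Itpr3, an inositol trisphosphate receptor that releases stored calcium, rose from 26.0 ± 1.74 CPM (SD, n = 2) to 44.4 ± 0.340 CPM with full-length ASXL2 and 38.5 ± 2.26 CPM in the 6 mutant libraries. Its log2 fold changes were 0.77 (edgeR adjusted p = 0.0006573) and 0.57 (adjusted p = 0.0007003), and both calls held without the block. In limma on log2(TPM + 1) the second narrowly missed (0.40, adjusted p = 0.0529). Src, the founding kinase of the family, rose from 15.4 and 19.0 CPM to 35.8 and 40.8 CPM with full-length ASXL2 and 23.3 to 37.9 CPM in the mutants. For Src the log2 fold changes were 1.16 (edgeR adjusted p = 0.00145) and 0.78 (adjusted p = 0.00284), and the mutant call was lost without the block (0.0527) and without replicate 1 of the empty vector (0.0655). Cbl, a ubiquitin ligase that takes activated receptors and kinases out of action, rose by 0.75 and 0.45 on the log2 scale (edgeR adjusted p of 0.00298 and 0.0102), and both calls were lost without the block (0.0925 and 0.205) and in limma on log2(TPM + 1) (0.266 and 0.218). The Cbl call in the mutants was also lost without replicate 1 of the empty vector (log2 fold change 0.35, adjusted p of 0.190).

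Rasgrp1, which activates Ras downstream of diacylglycerol, fell from 32.4 and 35.1 CPM to 16.7 CPM in both full-length libraries and to 20.1 to 28.2 CPM in the mutants. Its log2 fold change was -1.01 with full-length ASXL2 (edgeR adjusted p = 0.00197), also called without the block. In the mutants it was -0.49 (edgeR adjusted p = 0.0140), which was lost without the block (0.109) and without either empty vector replicate (0.160 and 0.0797). Clnk, an adaptor of the SLP-76 family, fell by 0.48 with full-length ASXL2 and by 0.39 in the mutants (edgeR adjusted p of 0.00999 and 0.00588). Both calls were lost without the block (0.548 and 0.412) and without replicate 1 of the empty vector (0.0926 and 0.131), and the first also without replicate 2 of full-length ASXL2 (0.113). Nfatc2, a transcription factor switched on by calcium, fell in the mutants from 94.9 ± 5.39 to 68.8 ± 9.40 CPM (log2 fold change -0.47, edgeR adjusted p = 0.0101), and that call was lost without the block (0.124), without replicate 1 of the empty vector (0.154) and with coding transcripts only (0.0906).

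Pik3r5, a regulatory subunit of phosphoinositide 3-kinase gamma, was called higher but lay at the floor of detection, at 0.190 and 0.490 CPM with the empty vector, 0.432 and 1.28 CPM with full-length ASXL2 and 0.576 to 2.46 CPM in the mutants. Its log2 fold changes were 1.30 (edgeR adjusted p = 0.0243) and 1.99 (adjusted p = 0.0007909), and both calls were lost without the block (0.870 and 0.301). The first was lost as well without any one of the empty vector and full-length libraries (adjusted p-values from 0.0636 to 0.229). The 4 other calls in the mutants were Skap2 (0.42, edgeR adjusted p = 0.0257) and Gab2 (0.21, adjusted p = 0.0373), which rose, and Itpr2 (-0.30, adjusted p = 0.0277) and Spred1 (-0.24, adjusted p = 0.0436), which fell. None of these 4 passed without the block (edgeR adjusted p from 0.126 to 0.772). Without replicate 1 of the empty vector Itpr2 was the only 1 of the 4 to pass (0.0260, the others 0.189 to 0.338), and without replicate 2 Skap2 was (0.0448, the others 0.155 to 0.355). Leaving out 1 mutant or full-length library also ended calls of Gab2, Skap2 and Spred1, at adjusted p-values from 0.0516 to 0.0783. Gab2 is the adaptor through which Fyn signals in mast cells.

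The genes whose levels followed each receptor chain most closely over the 10 libraries differed between the chains. By Pearson's r of log2 CPM among 9067 genes averaging at least 10 CPM, Fcer1a was followed by Rgs18 (0.94), Abi1 (0.93) and Sri (0.93), Ms4a2 by Wdyhv1 (0.94), Ptpn12 (0.94) and Cd84 (0.93), and Fcer1g by Fbxw11 (0.99), Ywhaz (0.99) and Taf9b (0.99). The chains followed each other less, with r of 0.62 between Fcer1a and Fcer1g, 0.30 between Fcer1a and Ms4a2 and -0.50 between Ms4a2 and Fcer1g. These values are a description over 10 libraries that share batches and constructs, and Fcer1g and Ms4a2 move with the batch in opposite directions.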

How the data were processed

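PolyA RNA of 10 libraries was analysed from the deposited transcript tables. Per the file headers they hold kallisto's columns of estimated counts and of TPM. The submitters' processing notes name kallisto, DESeq2 and mm10. Versions, index, filters and strand setting were not given in the sources used, so a gene and an overlapping antisense gene may share reads. GENCODE M21 (114200 of 115088 transcripts matched) gave the sums per gene, and the deposited estimated counts were rounded. The test was edgeR 4.0.16 under R 4.3.3 (robust quasi-likelihood, TMM, default filter with a minimum count of 10 and a smallest class of 2, 17810 genes kept, Benjamini-Hochberg at 0.05) in 1 fit of 3 classes over all libraries, with the batch in the deposited names as a replicate block. The SE of a log2 fold change was derived as its size over the square root of the quasi-likelihood F. Intervals at 95% use this SE and a t quantile. Ratios were tested by exact permutation over all libraries, and (added after seeing the data) within batches, in Python 3.11.15.

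The pairing comes from the deposited names: deviations from class means correlated at 0.525, 0.571 and 0.640 between same-batch libraries of the 3 classes. By labelled batch the mutants were not pooled, and pairs of the 5 groups lay between -0.145 and 0.578. The pair of empty vector and full-length ASXL2 is the same by name and by label, at 0.525. The values by name and by label are thus not a like-for-like comparison. Alternatives were no block, the labelled batch, DESeq2 1.42.0 and its size factors, other filters, limma 3.58.1 on log2(TPM + 1) and log2(TPM + 0.1), subsets of libraries and each library left out. The scripts were tested on simulated counts.

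The 10 genes and all lists were chosen with earlier results of these data known. Text names all 10, their relatives by level, up to 6 pathway genes per comparison by smallest p (the 4 further calls were added after their values were seen), the 3 closest genes per receptor chain by correlation, and transcripts of at least 10% of a gene's TPM. The test of Fcgr3 was also added after its values were seen. Intervals cover the spread between libraries only. Levels of some related kinases and a Lyn sequence are not reported here.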

Additional observations from a re-analysis of the deposited data

How the results depend on the processing

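Without the replicate block the genes called fell from 903 to 134 (full-length ASXL2 against the empty vector), from 1925 to 311 (mutants against the empty vector) and from 71 to 0 (mutants against full-length). A block by the labelled batch gave 129, 335 and 1. Of the 10 receptor and signalling genes, both settings called 0 in each comparison, instead of 0, 2 and 1. DESeq2 called 1523 genes for full-length ASXL2 and 491 for the mutants against it, and no filter gave 183 for the latter. In limma the 3 counts were 259, 707 and 23 on log2(TPM + 1) and 321, 829 and 17 on log2(TPM + 0.1), with 0, 1 and 0 of the 10 genes on either. Only libraries whose name matches the label gave 446, 567, 7 and, for the batch, 5268 genes, with 1 of the 10 for the mutants against the empty vector, 0 against full-length and 2 for the batch. Only the libraries of the 2 classes compared gave 427 for full-length ASXL2, and 1 of the 10 for the mutants against the empty vector. DESeq2, the stricter filter and coding transcripts only (added after seeing the data) each called 1 of the 10 for full-length ASXL2.

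Leaving out each library in turn gave 285 to 1047, 494 to 2042, 2 to 111 and, for the batch, 8160 to 9105 genes. Of the 10 genes it left 0 to 0, 1 to 2, 0 to 1 and 3 to 6. The lowest 3 counts came without full-length replicate 2, empty vector replicate 1 (384 for full-length ASXL2) and full-length replicate 2; without full-length replicate 1 full-length ASXL2 had 465 and the mutants against it 47. Against full-length the count was 111 without either empty vector library and 24 to 46 without replicate 1 of mutant 1, both of mutant 2 or replicate 2 of mutant 3.

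The batch difference changed sign for Fcer1a (-0.0845 in both limma fits, -0.0002 with coding transcripts) and for Syk (-0.0772 and -0.0791), and, uncalled in every fit, for Lyn (0.05, but -0.12 and -0.13 in limma and -0.04 with coding transcripts) and Lat (0.05, but -0.11 in both limma fits). With libraries left out, log2 differences of partner ratios ranged for constructs against the empty vector from -0.11 to 0.15 (Ms4a2 per Fcer1a), -0.0233 to 0.0569 (Fcer1g per Fcer1a), -0.0237 to 0.15 (Lat2 per Lat), -0.16 to 0.14 (Plcg2 per Plcg1) and -0.0102 to 0.48 (Tec per Btk), and for mutants against full-length from -0.16 to 0.11, 0.0033 to 0.07, -0.10 to 0.14, -0.39 to 0.10 and -0.57 to 0.14. Fyn per Lyn kept its sign (0.29 to 0.65 and 0.25 to 0.49). Rescaling TPM without Mir6236 multiplies every other gene of a library by a common factor, so it moves the TPM of all 10 genes. For example, it moved the mean of Fcer1g from 1320 to 1423 TPM and of Lat from 380 to 409 TPM. Of 40 results of single genes 28 passed in no fit, and 19 of these changed sign in at least 1, by sizes of at most 0.13. The causes were not tested. With 2 libraries in 2 of the classes, small changes are hard to detect.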
